A study of Mus musculus with 20 samples.

Results

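The genes of cytotoxic granules and CCL chemokines followed here were 9 of the 13798 genes of the expression matrix, listed by name and measured in follicular T cells of autoimmune and control chimeras. They were *Ccl5*, *Ccl3*, *Ccl4*, *Gzmk*, *Gzmb*, *Nkg7*, *Cst7*, *Ctsw* and *AW112010*. Single-cell RNA and TCR libraries had been made from follicular T cells (CXCR5+PD-1+ among CD3+CD4+ cells, CD45.2+ and CD45.1-) sorted from the spleens of irradiated C57BL/6 recipients, 1 mouse per library. WT chimeras (5 mice, labelled 2 female and 3 male) had received WT marrow alone and were given NP-OVA in alum at week 6. 564Igi chimeras (5 mice, labelled 3 female and 2 male) had received WT marrow mixed with marrow of 564Igi mice, whose B cells carry knocked-in heavy and light chains of an autoreactive B cell receptor, and the labels name no immunization for them. Both kinds were analysed at week 10, and genotype, immunization and the separate normalization of the 2 conditions cannot be told apart in this design. The authors' annotation divides the 28192 cells into activated TFH (11953 cells), TFR (11650), *Sostdc1* TFH (2803), central memory TFH (725), effector TFH (682) and interferon-stimulated (ISG) TFH cells (379).

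Cytotoxic lymphocytes store perforin and granzymes in granules that are released onto a target cell. Granzymes are serine proteases, and cathepsins and cystatins of the same granules shape their maturation. CCL3, CCL4 and CCL5 are secreted chemokines that draw leukocytes to sites of inflammation. CD4 T cells can express these genes after strong or repeated stimulation, whereas helper T cells of the germinal centre are known for cytokines and surface ligands that act on B cells.

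The 3 chemokine genes lie on chromosome 11 in GRCm38: *Ccl5* at chr11:83525778-83530518, *Ccl3* at chr11:83647844-83649355 (both on the minus strand) and *Ccl4* at chr11:83662584-83664683 (plus strand). The other members are on separate chromosomes or far apart, with *Gzmk* at chr13:113171608-113225908 (minus), *Gzmb* at chr14:56258838-56262260 (minus), *Nkg7* at chr7:43437073-43438249 (plus) and *Cst7* at chr2:150570415-150578944 (plus). *Ctsw* lies at chr19:5465043-5468507 (minus) and *AW112010*, annotated as a long non-coding RNA, at chr19:11047612-11055808 (minus). RefSeq promoter windows (GRCm38.p6) were found for 6 of the 9 members. The 250 bases before the start were searched on both strands for TGTGGT (RUNX), TCACAC (T-box), GGAAA (NFAT) and TGANTCA (AP-1). RUNX letters were in 4 of the 6 members and in 14.05% of 32851 promoters, T-box letters in 3 and 12.3%, NFAT letters in 4 and 55.6%, and AP-1 letters in 1 and 6.75%. These matches are a description of letters and not of binding. The 4 windows below are those with a RUNX match, from members that follow the effector cluster to very different degrees, and are shown 5′ to 3′ on the gene's strand up to its start. Capitals mark every match on either strand, and in these windows no match overlaps another. The windows are chr11:83649379-83649628 (minus) for *Ccl3*, chr14:56262335-56262584 (minus) for *Gzmb*, chr7:43436888-43437072 (plus, ending 65 bases before the RefSeq start) for *Nkg7* and chr2:150570165-150570414 (plus) for *Cst7*.
Ccl3: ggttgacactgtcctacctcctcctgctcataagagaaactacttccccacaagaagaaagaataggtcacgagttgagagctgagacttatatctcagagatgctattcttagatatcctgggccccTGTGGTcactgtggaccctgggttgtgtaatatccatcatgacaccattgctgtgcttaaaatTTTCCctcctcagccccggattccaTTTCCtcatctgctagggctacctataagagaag
Gzmb: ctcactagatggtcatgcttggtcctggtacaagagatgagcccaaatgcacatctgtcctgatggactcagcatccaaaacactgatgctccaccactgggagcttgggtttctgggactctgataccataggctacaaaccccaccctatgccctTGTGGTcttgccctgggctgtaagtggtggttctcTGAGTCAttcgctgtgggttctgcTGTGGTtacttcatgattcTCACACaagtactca
Nkg7: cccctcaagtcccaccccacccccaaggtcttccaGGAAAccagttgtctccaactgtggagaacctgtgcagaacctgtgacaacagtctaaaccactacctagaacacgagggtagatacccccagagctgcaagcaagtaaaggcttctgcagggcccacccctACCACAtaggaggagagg
Cst7: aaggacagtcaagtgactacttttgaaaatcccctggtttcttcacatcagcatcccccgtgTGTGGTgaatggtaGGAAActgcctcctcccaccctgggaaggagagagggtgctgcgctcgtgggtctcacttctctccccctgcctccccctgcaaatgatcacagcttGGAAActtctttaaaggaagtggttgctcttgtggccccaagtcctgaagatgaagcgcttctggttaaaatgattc

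Libraries held 1121 to 4030 cells and 3424280 to 15241983 UMIs per mouse, and the conditions overlapped in both (exact permutation, 2-sided, p = 0.540 and 0.706). The 564Igi mouse 24 was the smallest library and had the lowest median UMI count per cell (2728, against 4375.5 in mouse 17, the highest). Of all barcodes, 1.77% were found in more than 1 library (988 cells). The effector cluster held 23 to 77 cells per WT mouse and 35 to 173 per 564Igi mouse, and the central memory cluster 42 to 185 and 13 to 83. A gene was called found in a cell with a corrected count of at least 1, and its level is the mean over a mouse's cells of log2 of that count plus 1. Effector cells carried T cell transcripts: *Cd3e* was found in 99.3% of them, *Cd4* in 75.7%, *Pdcd1* in 62.3% and *Cxcr5* in 36.7% (mean over 10 mice). *Foxp3*, the regulatory T cell factor, was found in 4.08% of effector cells and 56.0% of TFR cells. Central memory cells had *Sox4* in 66.9%. Of markers of CD8 T and NK cells, *Cd8b1* was found in 4.87% of effector cells, 5.77% of TFR cells and 4.59% of all cells. In the same order, *Klrb1c* was found in 2.77%, 5.34% and 3.76%, *Tyrobp* in 1.17%, 0.160% and 0.114%, and *Klre1* in 1.15%, 0.0137% and 0.0611%. The last 2 were thus rare but more frequent in effector cells, and *Klrb1c* was less frequent there. *Cd79a* of B cells was found in no effector cell. *Cd8a*, *Ncr1* and *Klra8* were not measured here.

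*Ccl5* had a larger part of its counts in the effector cluster than any other member. It was found in 76.1% of effector cells, 15.3% of central memory cells, 10.3% of TFR cells and 8.58% of ISG cells, with 5.64% in activated and 3.11% in *Sostdc1* TFH cells (means over 10 mice, 8 for central memory and ISG cells). Since *Ccl5* and *Gzmk* served to name the effector cluster and the cells were clustered on these genes, the differences between clusters are a description. Where found, *Ccl5* had a median of 147.5 counts in effector cells, and 94.0% of those 550 cells had 10 or more. In the 1174 TFR cells with *Ccl5* the median was 1, and 61.4% had exactly 1. Effector cells supplied 88.5% ± 7.11 of a mouse's *Ccl5* counts (SD, n = 10 mice), from 76.8% to 98.2%.

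*Ccl3* and *Ccl4*, neighbouring genes for chemokines made on activation, were found in 34.6% and 39.3% of effector cells. No other cluster exceeded 1.47% for either gene on average, the ISG cluster for *Ccl4*. Effector cells gave 73.4% of *Ccl3* and 69.9% of *Ccl4* counts, and activated TFH cells 22.5% and 23.5%. The effector share varied widely between mice, from 41.8% to 91.3% for *Ccl3* and from 25.9% to 97.1% for *Ccl4*. Only 15 of 11650 TFR cells had *Ccl3* and 23 had *Ccl4*, against 67 and 62 of 11953 activated cells.

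**Figure D1:**
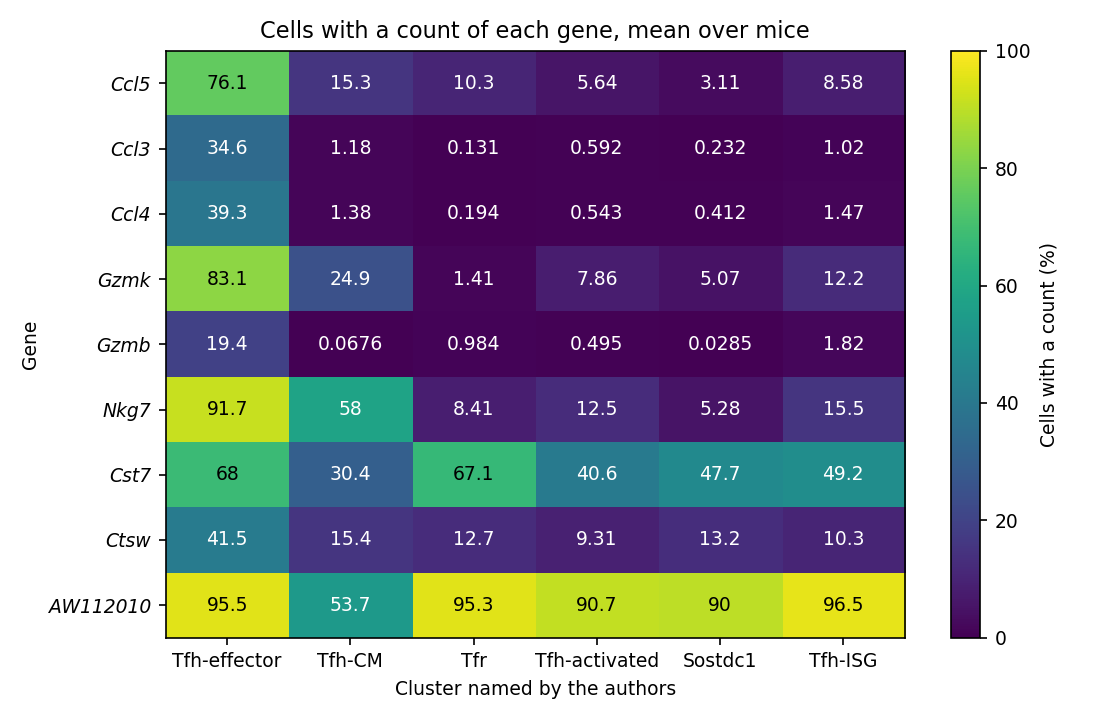
Percent of cells with a count of each member in each annotated cluster, given as the mean over mice with at least 20 cells of the cluster. *Ccl3*, *Ccl4* and *Gzmb* average at most 1.82% outside effector cells, while *Nkg7* and *Gzmk* are also found in central memory cells and *Cst7* and *AW112010* in most TFR cells.

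The granule proteases and *Nkg7*, which encodes a granule membrane protein needed for efficient degranulation, were also highest in effector cells but reached other clusters. Granzyme K (*Gzmk*) was found in 83.1% of effector cells, 24.9% of central memory cells, 12.2% of ISG cells, 7.86% of activated cells and 1.41% of TFR cells. *Nkg7* was found in 91.7% of effector and 58.0% of central memory cells, against 15.5% in ISG, 12.5% in activated and 8.41% in TFR cells. Both thus had central memory cells next in order to effector cells. Granzyme B (*Gzmb*), the classical cytotoxic granzyme, was found in 19.4% of effector cells, 1.82% of ISG cells, 0.984% of TFR cells and 0.0676% of central memory cells, where a single cell of 725 had it. *Gzmk* and *Gzmb* thus did not share their order of clusters: TFR cells were above central memory cells for *Gzmb* and below them for *Gzmk*. Effector cells supplied 50.5% of *Gzmk*, 45.6% of *Gzmb* and 44.9% of *Nkg7* counts, and TFR cells 26.5% of *Gzmb* counts.

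The remaining members were expressed broadly. *Cst7* encodes cystatin F, an inhibitor of granule cathepsins, and was found in 68.0% of effector cells and 67.1% of TFR cells, 2 clusters whose ranges over mice overlapped. It was found in 30.4% to 49.2% of the cells of the other clusters. Because TFR cells were many, they held 61.0% of *Cst7* counts and effector cells 3.32%. *Ctsw*, which encodes cathepsin W, a protease of cytotoxic lymphocytes, was found in 41.5% of effector cells and in 9.31% to 15.4% of the cells of the other 5 clusters. *AW112010*, an interferon-inducible transcript reported to encode a small protein, was found in 89.96% to 96.5% of cells in every cluster but central memory, where 53.7% had it. When found, it had a median of 13 counts in effector cells, 6 in TFR cells and 2 in central memory cells.

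Free RNA in droplets gives all cells a like low share of a gene and keeps the counts of its genes in 1 ratio. Per *Ccl5* count, TFR cells had 0.0108 *Ccl3* and 0.0264 *Ccl4* counts, beside 0.0151 and 0.0308 in effector cells, but activated cells had 0.110 and 0.313, and *Sostdc1* cells 0.0685 and 0.164. The ratios of other members were higher in TFR than in effector cells: 0.0777 against 0.0426 for *Gzmk*, 0.0695 against 0.0039 for *Gzmb*, 0.655 against 0.0935 for *Nkg7* and 0.642 against 0.0055 for *Ctsw*. The part of free RNA in the *Ccl5*, *Ccl3* and *Ccl4* counts outside the effector cluster was not tested. In TFR cells 56 cells had 10 or more *Ccl5* counts, 4.77% of those with any.

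Across 56 mouse-by-cluster means, which share libraries and cluster identity, *Ccl5* followed *Gzmk* with r = 0.96 and *Cst7* with r = 0.44, and *Ccl3* followed *Ccl4* with r = 0.98. Of 11248 genes compared, those most like the members' standardized mean included *Rgs1* (r = 0.92), *Prf1* (0.91), the perforin gene, *Dapk2* (0.91), *Ctsd* (0.91), *Havcr2* (0.90), *Fasl* (0.90), *Cd7* (0.89), *Entpd1* (0.88) and *Kremen2* (0.87). By single member, *Prf1* was most like *Gzmk* (0.96) and *Nkg7* (0.97), *Dapk2* most like *Ccl3* (0.91) and *Ccl4* (0.92), and *Cd7* most like *Gzmb* (0.91). *Cyba* was most like *Cst7* (0.85), *Ier3* most like *Ctsw* (0.87) and *H2.D1* most like *AW112010* (0.88).

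Within single effector cells the chemokines came together. *Ccl3* and *Ccl4* were both found in 191 of 682 cells, where 114.8 would be expected from their shares in each mouse, and the count was above expectation in 10 of 10 mice. *Ccl4* was found in 77.3% of cells with *Ccl3* and 22.1% of those without. All but 2 of the 247 cells with *Ccl3*, all but 1 of the 287 with *Ccl4* and all 143 with *Gzmb* also had *Ccl5*. *Gzmb* was found in 32.8% of cells with *Ccl3* and 14.3% of cells without (81 cells with both against 58.8 expected, above in 10 of 10 mice). These are descriptions over cells, which share library and depth, and cells with and without *Ccl3* had similar median UMI counts (3438 and 3505).

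*Ctsw* went the other way. Together with *Ccl3* it was found in 71 effector cells against 96.8 expected, and with *Ccl4* in 83 against 113.6, above expectation in 0 of 10 mice for both pairs. It was found in 36.7% of effector cells with *Ccl5* and 59.8% of those without, and in 37.2% of those with *Gzmk* and 67.0% of those without. Cells with *Ctsw* were deeper (median UMI count 3918 against 3290), and cells with *Ccl5* were shallower than cells without (3387.5 against 4253), which was not adjusted for here. Counting all members but *AW112010*, which nearly every cell had, 4 or more of 8 were found in 72.3% ± 14.3 of effector cells (SD, n = 10 mice), 6.24% ± 7.83 of central memory cells (n = 8) and 0.778% ± 0.457 of TFR cells (n = 10). All 8 were found in 8 effector cells.

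Effector cells without a *Ccl5* count had other genes than the rest of the cluster. There were 132 such cells, 76 in WT and 56 in 564Igi mice, and they made up 27.3% ± 16.3 of effector cells in WT and 20.5% ± 13.9 in 564Igi mice (n = 5 each, exact permutation p = 0.5). The highest shares were in the mice whose libraries are numbered apart, 54.3% in WT mouse 36 and 40.0% in 564Igi mouse 34. The genes that follow were picked after their values were seen, in 9 mice with at least 5 cells of each kind, so they carry no test. *Crtam*, an adhesion receptor of cytotoxic CD4 T cells, was found in 66.3% of cells without *Ccl5* and 11.6% of cells with it. *Xcl1*, a chemokine for cross-presenting dendritic cells, was found in 59.8% and 12.1%, *Tnfrsf9* (4-1BB) in 56.7% and 16.1%, *Slamf7* in 76.0% and 32.1%, and *Cd200* in 56.8% and 12.9%. All 5 were lower in *Ccl5* cells in 9 of 9 mice. In the other direction, *Irf1* was found in 68.0% of *Ccl5* cells and 28.9% of the others, and *Gimap7* in 82.3% and 42.7%. Of the members, *Ccl4* was found in 50.4% and 0.444% of the 2 kinds, *Gzmk* in 92.5% and 52.3%, and *Nkg7* in 98.8% and 69.8%.

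The split was not complete. *Crtam* or *Xcl1* was found with *Ccl5* in 85 effector cells where 137.3 would be expected, *Ccl5* alone in 465, *Crtam* or *Xcl1* alone in 101, and neither in 31. Both genes were picked in these same cells for a low share beside *Ccl5*, so a count below expectation follows from that choice. Outside the effector cluster, *Crtam* was found in 31.8% and *Xcl1* in 10.1% of central memory cells, but in 2.04% and 0.587% of TFR cells. The WT mouse 11 had the weakest separation, with *Crtam* or *Xcl1* in 38.3% of cells with *Ccl5* and 58.8% of cells without.

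In central memory cells the pairs that co-occurred were those of *Gzmk*, *Nkg7* and *Ccl5*. *Gzmk* and *Nkg7* were found together in 140 of 725 cells against 100.04 expected (above in 10 of 10 mice), and *Ccl5* and *Nkg7* in 79 against 57.3 (9 of 10). TFR cells paired *Ccl5* with other members: with *Nkg7* in 199 cells against 96.3 expected, with *Gzmb* in 35 against 11.55 and with *Ctsw* in 234 against 155.0, each above in 10 of 10 mice. *Nkg7* and *Ctsw* were found together in 248 TFR cells against 117.2 expected, so that the low overlap of *Ctsw* with other members in effector cells was not seen there. *Ccl5* and *Gzmk*, the pair that named the effector cluster, were found together in 13 TFR cells against 14.7 expected. *Gzmk* and *Cst7* were found together in 65 against 96.1, above expectation in 0 of 10 mice. Depth moved with these counts, since the median UMI count of TFR cells went from 3262 with 0 members to 4573.5 with 4.

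The 564Igi and WT chimeras were compared over mice, with limma across all genes (a call needed an adjusted p, by Benjamini-Hochberg, below 0.01 together with a log2 difference above 0.2) and with exact 2-sided permutation of the mice for single members, whose smallest p with 5 against 5 mice is 0.00794 and which is not adjusted over members. In effector cells 8 of 9 members were higher in 564Igi mice, with a median log2 difference of 0.29 against -0.004 over all genes. None was called, as were 0.0104% of the 9637 genes tested (1 gene), while 8 members had an unadjusted p below 0.05 (6 without limma's trend) against 503 of all genes.

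*Ccl5* showed the widest spread. Its level was 4.74, 5.44, 5.32, 4.24 and 2.71 in WT mice 11, 12, 14, 23 and 36, and 5.93, 5.20, 7.32, 5.13 and 3.92 in 564Igi mice 13, 17, 21, 24 and 34. Mouse 21 stood above all others and mouse 36 below, and the groups overlapped. The log2 difference was 1.01 (SE 0.336, limma adjusted p = 0.752, exact permutation p = 0.238). For *Nkg7* the level was 3.25, 3.07, 2.95, 2.79 and 2.53 in WT and 3.45, 3.37, 3.97, 3.43 and 2.97 in 564Igi mice, in the same order. Mouse 34 alone of the 564Igi mice lay within the WT range. The difference was 0.52 (SE 0.139, limma adjusted p = 0.237, exact p = 0.0238).

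*Ccl3* differed by 0.37 (SE 0.0921, limma adjusted p = 0.1501, exact p = 0.0397) and *Gzmb* by 0.17 (SE 0.0499, adjusted p = 0.417, exact p = 0.0397). *Cst7* differed by 0.23 (limma adjusted p = 0.945, exact p = 0.0317) and *AW112010* by 0.64 (SE 0.151, adjusted p = 0.0948, exact p = 0.0556). *AW112010* was called without mouse 34 (0.80, limma adjusted p = 0.00343) and without both mice 34 and 36 (0.73, limma adjusted p = 0.00656). *Ccl4* differed by 0.29 and *Gzmk* by 0.18, both within the spread between mice (exact p = 0.238 and 0.468). *Ctsw* was the one member lower in 564Igi mice, by -0.19 (limma adjusted p = 0.945, exact p = 0.0635). Cells with a CD8 or NK marker made up 9.42% of effector cells in WT and 6.34% in 564Igi mice. The corrected counts of these markers, summed in each cell and averaged over a mouse's effector cells without a log, ranged from 0.113 to 1.35 in WT and from 0.0636 to 0.383 in 564Igi mice. Without the cells with a marker the median difference of the members was 0.20, with 6 members at an unadjusted p below 0.05. The *Gzmk* difference was then 0.04 and that of *Ccl4* 0.19, while *Ccl5* was at 0.87, *AW112010* at 0.61 and *Nkg7* at 0.49.

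**Figure D2:**
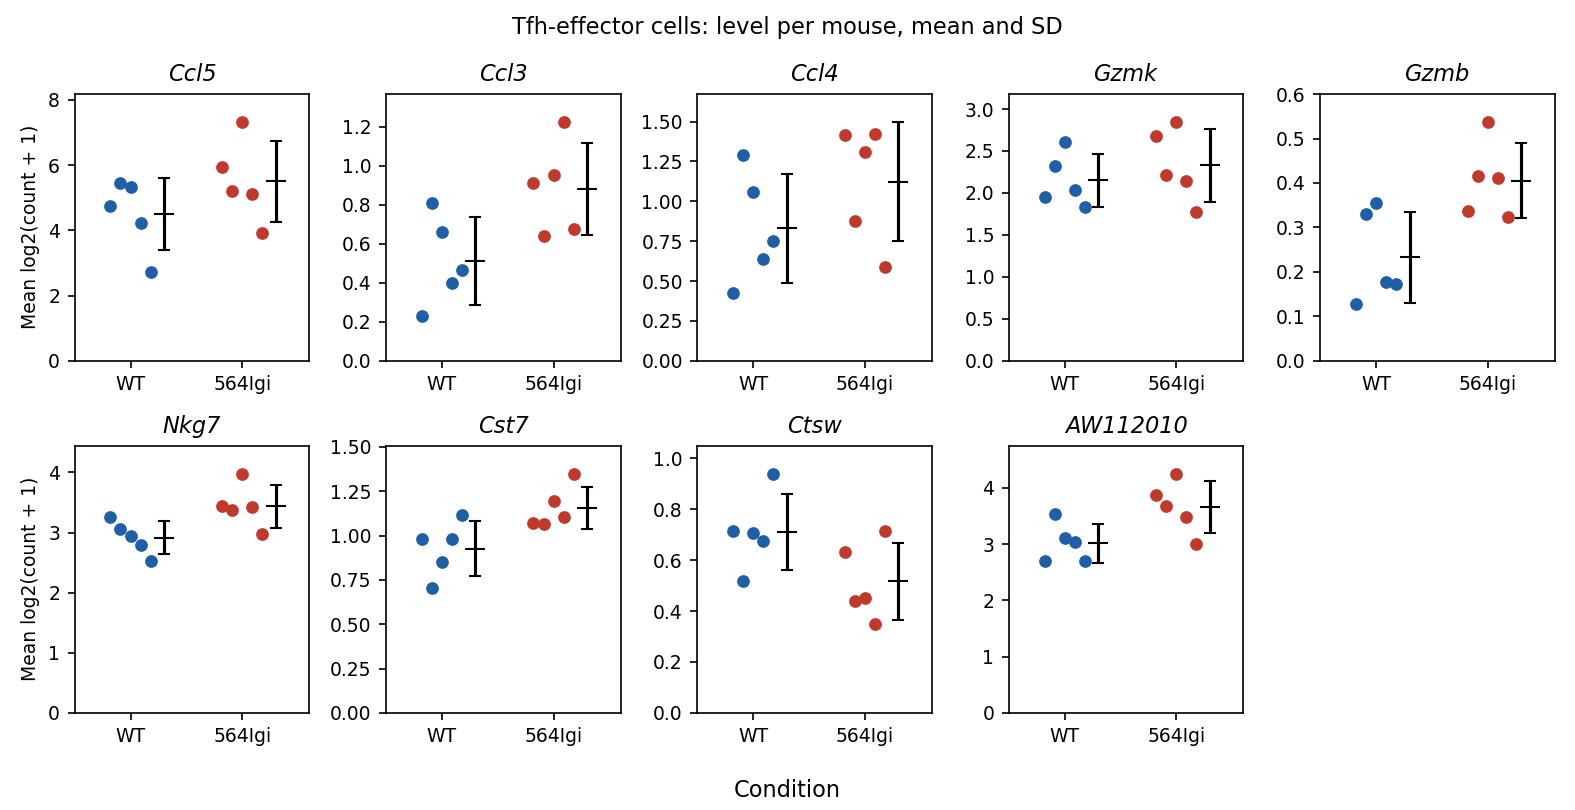
Level of each member (y axis, mean log2 of corrected count plus 1) in effector cells of WT and 564Igi chimeras, each point 1 mouse, with mean and SD of 5 mice beside them. The 564Igi mean is higher for 8 of 9 members and lower for *Ctsw*, and the groups overlap for every member.

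Means over effector cells mix cells with and without *Ccl5*, whose proportion ranged from 3.47% to 54.3% without between mice. A comparison added after the data were seen took only effector cells with a *Ccl5* count, 20 to 60 per WT and 21 to 167 per 564Igi mouse. Since a *Ccl5* count chose these cells, their *Ccl5* level is given as a description with no test. The *Ccl5* level was 6.08, 6.26, 6.45, 6.02 and 5.93 in WT mice 11, 12, 14, 23 and 36, and 6.70, 6.94, 7.58, 6.59 and 6.54 in 564Igi mice 13, 17, 21, 24 and 34. Every 564Igi mouse was above every WT mouse. The log2 difference was 0.72 (SE 0.0927), and 0.35 on the log2 of the mean count after scaling each cell to 1 common total. Median counts per cell ran from 74.5 to 108 in WT and from 96 to 210 in 564Igi mice, and so overlapped.

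Of the other 8 members 1 was called, *AW112010*, where 0.0766% of 9141 genes were (7 genes, *Ccl5* among them). Its level ran from 2.92 to 3.73 in WT and from 3.83 to 4.31 in 564Igi mice, a difference of 0.60 (SE 0.117, limma adjusted p = 0.00798, exact p = 0.00794). *Cst7* was also without overlap, at 0.709 to 0.939 in WT and 1.03 to 1.36 in 564Igi mice (0.33, limma adjusted p = 0.396, exact p = 0.00794), and *Ctsw* in the opposite direction, at 0.595 to 0.701 and 0.182 to 0.575 (-0.28, limma adjusted p = 0.107, exact p = 0.00794). Of all 9141 genes, 1.03% had no overlap between the 2 groups, as *AW112010*, *Cst7* and *Ctsw* did. *Nkg7* differed by 0.46 (limma adjusted p = 0.0599, exact p = 0.0159), *Gzmb* by 0.19 (exact p = 0.0159), *Ccl3* by 0.41 (exact p = 0.0397), *Ccl4* by 0.23 (exact p = 0.381) and *Gzmk* by 0.19 (exact p = 0.262). Without limma's trend no member was called (*AW112010* adjusted p = 0.510). *AW112010* was not called in 9 of the 19 alternatives tried, among them leaving out WT mouse 11, WT mouse 14 or 564Igi mouse 13, 17 or 21 (limma adjusted p from 0.0174 to 0.0585).

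**Figure D3:**
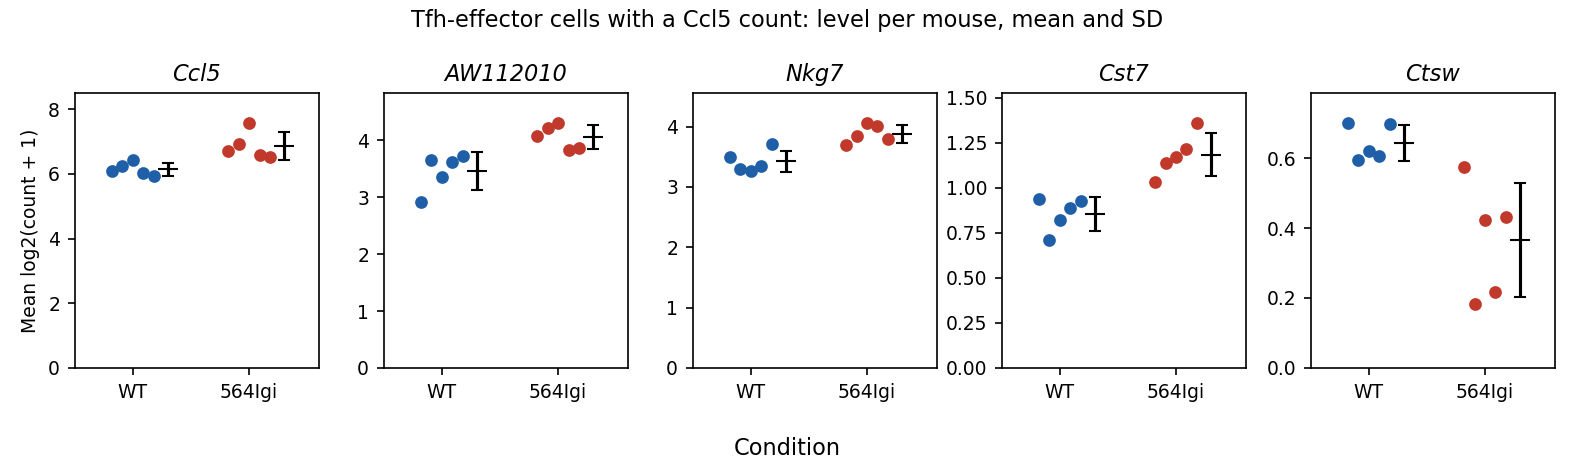
Level of 5 members (y axis, mean log2 of corrected count plus 1) in effector cells with a *Ccl5* count, each point 1 mouse, with mean and SD of 5 mice. The groups do not overlap for *Ccl5*, *AW112010* and *Cst7*, which are higher in 564Igi mice, nor for *Ctsw*, which is lower, and overlap for *Nkg7*.

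In central memory cells several members were higher in 564Igi mice, but only 3 of those mice had 20 cells. *Gzmk* was at 0.249 to 0.299 in the 5 WT mice and at 0.547, 1.71 and 0.419 in 564Igi mice 13, 17 and 24. *Nkg7* was at 0.854 to 0.988 in WT mice and at 1.51, 1.92 and 1.13 in the same 564Igi mice, and *AW112010* at 0.406 to 0.961 and 1.19, 1.19 and 1.41. *Ccl5* was at 0.110 to 0.236 in WT and 0.494, 0.395 and 0.546 in 564Igi mice, and *Cst7* at 0.242 to 0.401 and 0.610, 0.715 and 0.440. The 564Igi mice lay above all WT mice for these 5 genes, which 3.19% of the 10351 genes tested did, and for *Ctsw* the groups overlapped. No member was called, as were 0% of all genes. The log2 differences were 0.31 for *Ccl5* (SE 0.0499, limma adjusted p = 0.0188), 0.63 for *AW112010* (SE 0.105, adjusted p = 0.0203), 0.62 for *Gzmk* (limma adjusted p = 0.224), 0.58 for *Nkg7* (limma adjusted p = 0.124) and 0.30 for *Cst7* (limma adjusted p = 0.0909). For each the exact permutation p was 0.0179, the smallest that 5 against 3 mice allow.

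These differences depended on which mice entered. *Ccl3* and *Ccl4* were found in 3 and 5 central memory cells in all and passed the filter only through the 564Igi mice, and *Gzmb* was not tested. Mouse 21, with 19 cells, lay within or below the WT range (*Gzmk* 0.206, *Ccl5* 0.105, *AW112010* 0.605), and mouse 34, with 13 cells, was high (*Gzmk* 1.55, *Ccl5* 0.781, *AW112010* 1.16). With mice of at least 10 cells (5 against 5), the differences were 0.62 for *Gzmk*, 0.42 for *Nkg7*, 0.47 for *AW112010*, 0.30 for *Ccl5* and 0.27 for *Cst7*, with limma adjusted p from 0.488 to 0.805. Of the members only *Nkg7* was then without overlap, as were 110 of the 9590 genes tested. On the log2 of the mean count per 10000 the *Ccl5* difference among the 8 mice was 2.01 (limma adjusted p = 0.000472). That scale gives weight to cells with high counts, and these were few. Of all 725 central memory cells 98 had *Ccl5*, with a median of 1 count where found, and 8 had 10 or more, up to 139. Median UMI counts of the central memory cells were 4425, 5842 and 2611 in mice 13, 17 and 24, against 3403.5 to 4137 in WT mice, and the part of depth was not tested. Counts of 4 or more of 8 members were found in 1.88% of central memory cells in WT (0.541% to 3.16%) and 13.5% in 564Igi mice, at 9.52%, 24.1% and 6.90% in mice 13, 17 and 24. Without mouse 17, whose cells were the deepest, the 564Igi mean was 8.21%, and mouse 21 had 0% and mouse 34 15.4%. The shares were 0.760% and 7.10% when cells were thinned to 2000 counts.

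**Figure D4:**
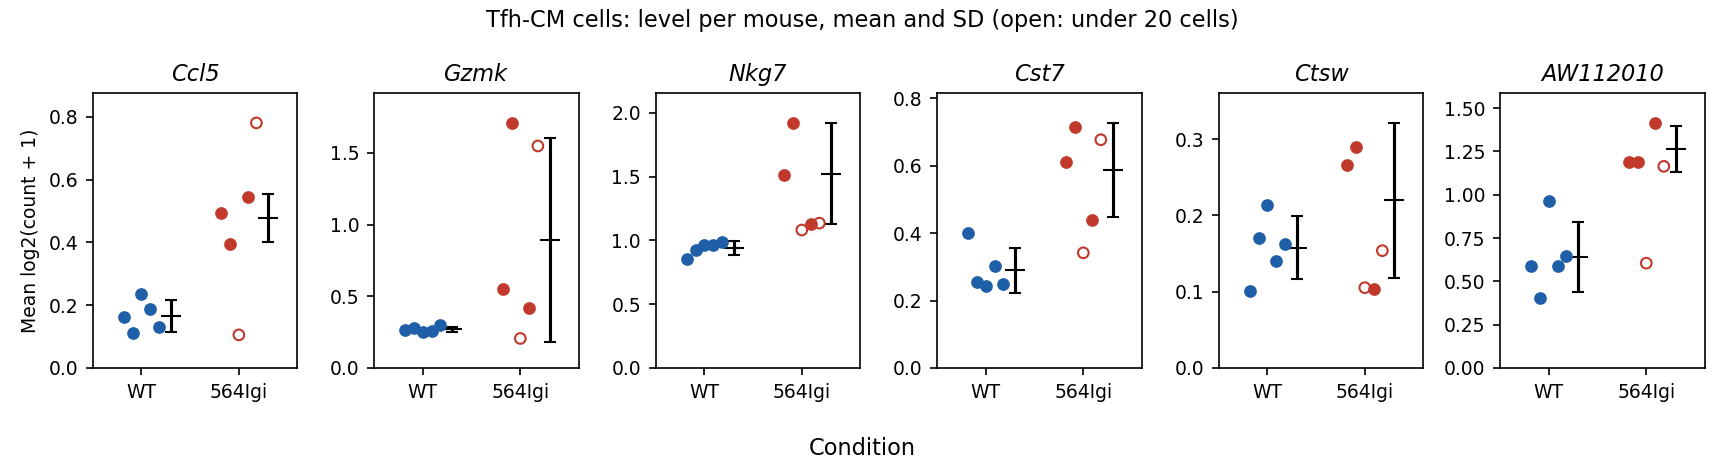
Level of members (y axis, mean log2 of corrected count plus 1) in central memory cells of WT and 564Igi chimeras, each point 1 mouse. Filled points are mice with at least 20 cells, which give the mean and SD, and open points are 564Igi mice 21 and 34 with 19 and 13 cells, of which mouse 21 lies within or below the WT range for *Gzmk*, *Ccl5* and *AW112010*.

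In TFR cells no member was called, as were 0.02% of 9994 genes (2 genes), and 2 of the 6 members tested had an unadjusted p below 0.05, as had 350 of all genes. *AW112010* was higher by 0.21 (limma adjusted p = 0.9998, exact p = 0.0238), at 2.46 ± 0.1497 in WT and 2.68 ± 0.136 in 564Igi mice. The percent of UMIs in mitochondrial genes also differed in TFR cells, with 3.51 in WT and 3.19 in 564Igi mice (exact p = 0.0159), and its part was not tested. *Gzmk* differed by 0.01 (exact p = 0.0476), with mouse 24 at 0.0574 and the other 564Igi mice at 0.015 to 0.021. *Ccl5* differed by -0.02 (exact p = 0.563) and *Cst7* by 0.07 (exact p = 0.262). In *Sostdc1* TFH cells *Ctsw* was found in 13.3% to 22.1% of cells in WT and 7.22% to 12.5% in 564Igi mice without overlap, with a level lower by 0.11 (limma adjusted p = 0.220, exact p = 0.00794). Levels were without overlap there for 83 of the 9885 genes tested. *Ctsw* was also lower in activated cells (-0.06, exact p = 0.0397), so its differences in effector cells, *Sostdc1* cells and activated cells had 1 sign, while it was 0.06 in central memory and 0.02 in TFR cells (exact p = 0.268 and 0.587). The percentages of genes called were 0.0101 in activated, 0.0202 in *Sostdc1* and 0.0106 in ISG cells and 0.01 over all cells, with no member among them (limma). *Nkg7* differed in ISG cells by -0.20 (limma adjusted p = 0.998, 4 against 4 mice). Unadjusted p was below 0.05 for 2 of 6 members and 393 of 9859 genes in activated, 3 of 6 and 455 of 9885 in *Sostdc1*, 1 of 6 and 396 of 9419 in ISG, and 1 of 7 and 318 of 9959 in all cells. Over all cells *Ccl5* differed by 0.07 (limma adjusted p = 0.9997), and by -0.03 when the effector cluster was left out.

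Genes of the same processes were read from 5 lists. None of their genes was called in effector, central memory, TFR or all cells (limma). Of 23 further granule and cytotoxic genes, 17 were tested in effector cells, with 2 higher and 1 lower at an unadjusted p below 0.05 and a median log2 difference of 0.03. By the rule for named genes, *Srgn*, the proteoglycan of granules, differed by 0.13, *Ctsb* by 0.25, *Ctsd* by 0.08 and *Lamp1* by -0.11 (limma adjusted p from 0.945 to 0.973). Of the 15 other chemokines 3 were tested in effector cells, none with an unadjusted p below 0.05, and *Xcl1* differed by -0.16 (limma adjusted p = 0.957). Of 13 receptors 10 were tested, with 1 lower. *Cxcr3*, the receptor for interferon-induced chemokines, differed by -0.08. Transcription factors had 16 tested in effector cells, with 4 higher and 2 lower at an unadjusted p below 0.05, and in central memory cells 5 of 16 higher and 0 lower. Of all genes, 503 of 9637 in effector and 784 of 10351 in central memory cells had an unadjusted p below 0.05 in either direction. *Eomes*, a T-box factor of cytotoxic cells found in 62.8% of effector, 52.7% of central memory and 0.401% of TFR cells, differed by 0.07 in effector and 0.26 in central memory cells. *Tcf7*, a factor of less differentiated T cells, differed by -0.34 in effector cells (limma adjusted p = 0.0343), outside the threshold used here. Of 11 NK receptors and related proteins 6 were tested in effector cells, with 1 lower. *Crtam* differed by -0.07 and *Slamf7* by -0.13.

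Clonal expansion was followed with the TCR table, in which 21405 of the RNA cells had a receptor of 33833 listed. Effector cells were mostly expanded, meaning that their clonotype had at least 2 cells in the mouse: 64.4% ± 12.4 in WT and 76.6% ± 6.05 in 564Igi mice (n = 5 each, exact permutation p = 0.111). Expanded and single cells were compared within 7 mice with at least 10 of each (350 and 115 cells). By limma 3 members were called with mouse as a block, against 0.0738% of 5417 genes (4 genes). *Ccl5* was higher in expanded cells by 1.21 (SE 0.175, limma adjusted p = 1.0e-04), in 6 of 7 mice. Its level in expanded and single cells was 5.46 and 3.103 in mouse 11, 4.57 and 3.92 in mouse 23, 3.48 and 1.85 in mouse 36, 5.94 and 3.08 in mouse 17, 7.28 and 6.80 in mouse 21, and 5.54 and 4.38 in mouse 24. Mouse 13 alone went the other way, with 5.55 and 6.19. *Ccl4* was higher by 0.54 (limma adjusted p = 0.00462) and *AW112010* by 0.46 (limma adjusted p = 0.00909), both in 7 of 7 mice. However, *Ccl4*, *Ccl3* and *Gzmb* passed the filter only through the expanded cells, since 0% of the single cells of WT mouse 11 had them. The call of *Ccl4* is therefore a description. *Ccl3* (0.34) and *Nkg7* (0.42) had a limma adjusted p of 0.0644, *Gzmk* differed by 0.39 (limma adjusted p = 0.336) and *Gzmb* by 0.07, and *Cst7* and *Ctsw* by -0.05 and -0.10.

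These values changed with the weight of large clonotypes. With each clonotype weighted once, none of 8 members tested was called and *Ccl5* differed by -0.23 (limma adjusted p = 0.793), and without the largest clonotype of each mouse, which left 6 mice and 6 members tested, it differed by 0.02 (limma adjusted p = 0.996). Without WT mouse 11, WT mouse 23 or 564Igi mouse 24 only *Ccl5* was called, and without limma's trend no member was (*Ccl5* adjusted p = 0.339). Pooled over all mice, effector cells with *Ccl5* were in expanded clonotypes in 78.1% of 442 cells with a receptor and had a median clonotype size of 11, against 62.7% of 102 and a size of 3 for cells without. Mouse 21 held 167 of the 550 cells with *Ccl5* and lacked it in 3.47% of its effector cells. Of its effector cells with a receptor, 87.2% were expanded. The part of differences between mice in these pooled values was not tested. In TFR cells (10 mice, 5808 expanded and 2972 single cells) no member passed both limits, as 0.0446% of 8971 genes did. *AW112010* was higher in expanded TFR cells by 0.19 in 10 of 10 mice (SE 0.0269, limma adjusted p = 6e-06), just under the limit of size, and *Ctsw* by 0.05 in 8 of 10 (limma adjusted p = 0.00706). *Ccl5* differed by 0.002 (limma adjusted p = 0.942).

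Cells of 1 clonotype were alike in finding some members and mixed in others, and this split followed the height of the counts. Where found in effector cells, the median count was 147.5 for *Ccl5*, 13 for *AW112010*, 12 for *Nkg7* and 6 for *Gzmk*. It was 3 for *Ccl4*, 2 for *Ccl3*, *Gzmb* and *Cst7*, and 1 for *Ctsw*, and the part of missed transcripts was not tested. Only cells of the cluster named by *Ccl5* and *Gzmk* entered, which favours uniform finding of these 2 genes. In the 18 clonotypes with at least 5 effector cells (217 cells of 7 mice, 4 clonotypes in WT and 14 in 564Igi mice, 8 of these from mouse 21), *Ccl5* was found in 71.4% to 100% of cells with a median of 100%, *Gzmk* in 90% to 100% and *Nkg7* in 85.7% to 100%. *Ccl3* was found in 11.1% to 100% (median 50%), *Ccl4* in 14.3% to 100% (median 54.2%), *Gzmb* in 0% to 60% (median 26.8%) and *Ctsw* in 0% to 66.7% (median 34.5%). In 17 of the 18, *Ccl3* and *Ccl4* were each found in between 10% and 90% of cells. With every clonotype given the same weight, 2 cells of a clonotype were alike in having or lacking *Ccl5* in 89.0% of pairs, where the share of the mouse would give 73.2%. The same was 92.1% and 79.0% for *Gzmk*, 97.8% and 86.6% for *Nkg7*, and 62.1% and 54.1% for *Ctsw*. For *Ccl3* it was 54.5% and 55.4%, for *Ccl4* 56.7% and 54.6%, for *Gzmb* 68.5% and 66.1%, and for *Cst7* 58.0% and 58.8%. The 1704 pairs came from 58 clonotypes, 465 of them from 1 clonotype, and no test was made on them.

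**Figure D5:**
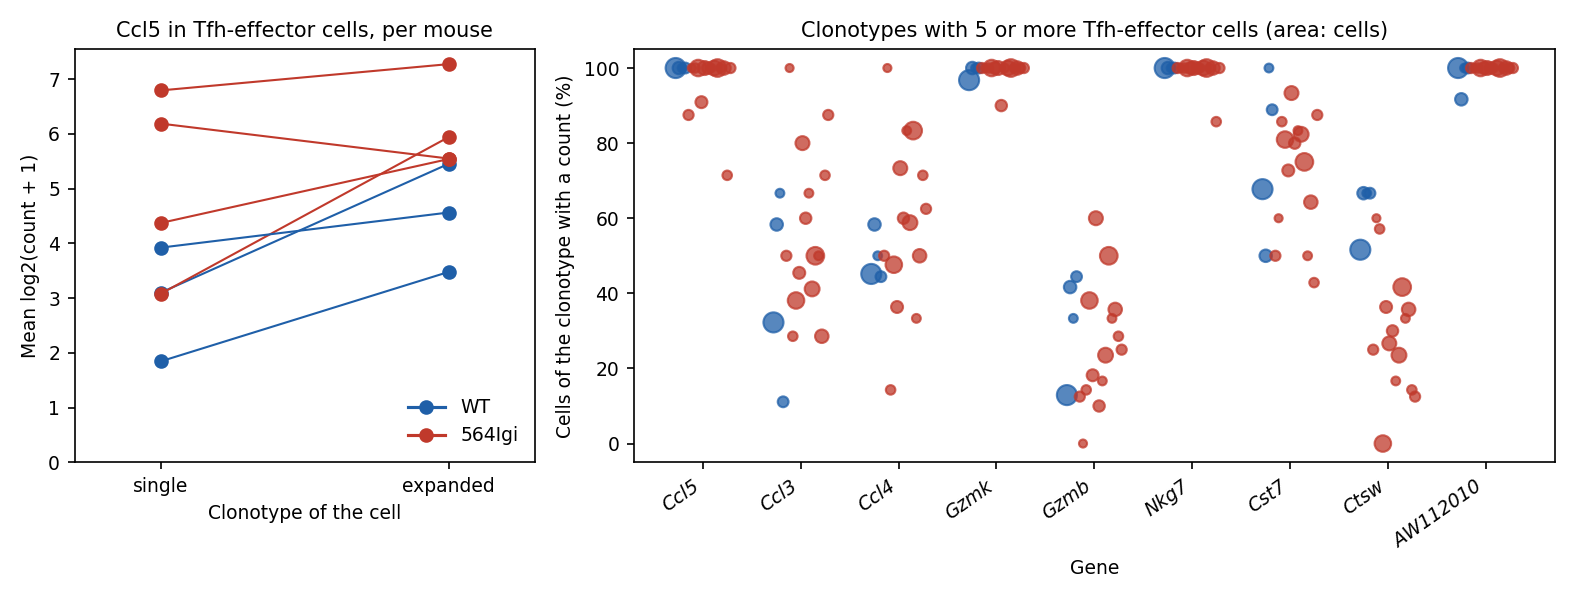
Percent of effector cells with each member (y axis) in the 18 clonotypes with at least 5 effector cells, each point 1 clonotype coloured by condition. *Ccl5*, *Gzmk*, *Nkg7* and *AW112010* are found in nearly all cells of a clonotype, while *Ccl3*, *Ccl4*, *Gzmb*, *Cst7* and *Ctsw* are found in part of the cells of most clonotypes.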

How the data were processed

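The authors aligned 10x 5′ libraries of 1 mouse each to GRCm38 with Cell Ranger 4.0.0, removed cells by gene and UMI number, cell cycle score, and ribosomal or mitochondrial share, and worked in Seurat 3.1.4, clustering the 2 conditions after integration. The deposited matrix holds sctransform-corrected UMI counts as ln(count + 1), a natural log, made by the authors for WT and 564Igi cells separately, so raw-count methods were not used. All 28192 cells fell between 2804 and 4591 corrected counts. The deposited cell table gives raw UMI counts per cell, the percent of mitochondrial UMIs, a heat shock score and the authors' cluster names, which were used as given, and the deposited TCR table gives CDR3 sequences. No doublet step is named in the study's methods and no doublet caller was run here.

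Per-mouse levels, the mouse being the replicate, were means of log2(corrected count + 1) in clusters where it had at least 20 cells. A gene entered a fit of conditions if 1% or more of the cells had it in a number of mice equal to the size of the smaller group. It entered a fit of clonotypes if 1% or more of the expanded cells, or of the single cells, had it in every mouse fitted. Fits were made with limma 3.58.1 (R 4.3.3, trend option), with Benjamini-Hochberg adjustment over all genes tested. Called genes had an adjusted p below 0.01 and an absolute log2 difference above 0.2. Single values were compared by exact 2-sided permutation of mice over all assignments (Python 3.11.15, numpy 2.4.6). Clonotypes were cells of a mouse with the same paired CDR3 sequences, and expanded against single cells were fitted with mouse as a block, since both kinds come from the same animal. Expected co-detection is the product of the shares in each mouse, summed over mice. The fits were tested on simulated data.

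The members and gene lists were chosen with earlier results of these data known. Genes named from the lists were those found in at least 5% of effector, central memory or TFR cells, at most 4 a list by highest share. Genes named for likeness were the 10 with the highest Pearson r with the mean standardized member level and the 1 most like each member. Some genes these rules name are not reported here. Alternatives covered limma's trend, filters, scale, depth, labelled sex, marker cells, clonotype weights and leaving out each mouse. Gene positions are from GENCODE and promoter sequences from RefSeq.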

Additional observations from a re-analysis of the deposited data

Results flagged for a closer look

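The difference between conditions was compared between cell types by taking, in each mouse, the effector level minus that of all other cells, or the TFR level minus that of activated cells, and permuting the 10 mice (exact, 2-sided). Of 18 such comparisons 6 had an unadjusted p below 0.05, and none had a Benjamini-Hochberg adjusted p below 0.107. For effector against other cells, the 564Igi minus WT value was 0.555 for *Nkg7* (exact p = 0.0238), 0.364 for *Ccl3* (exact p = 0.0397), 0.204 for *Cst7* (exact p = 0.0238) and 0.171 for *Gzmb* (exact p = 0.0476). For TFR against activated cells it was 0.0143 for *Gzmb* (exact p = 0.00794) and 0.0724 for *Ctsw* (exact p = 0.0238). The largest effector value was that of *Ccl5* at 1.04, which the spread between mice did not separate from 0 (exact p = 0.222).

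Single mice stood far from the others of their group in 3 of 62 groups examined, a number close to the 1 in 20 that chance gives. *Gzmk* in TFR cells was 0.0574 in 564Igi mouse 24, the smallest library, against 0.015 to 0.021 in the other 564Igi mice. *Gzmb* in effector cells with *Ccl5* was 0.381 in 564Igi mouse 13, below the other 564Igi mice. *Gzmb* in central memory cells was 0.00541 in WT mouse 11, where 1 cell had it, and 0 in the other WT mice.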

How the results depend on the processing

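No paired analysis was possible because the conditions share no mouse. Most values kept direction and threshold, in the comparison of conditions and in that of clonotypes: among member differences recomputed under alternatives other than leaving out a mouse, 376 kept both, 5 changed sign, 13 passed the threshold and 16 no longer did, and with a mouse left out 367 kept both, 3 changed sign, 12 passed and 15 no longer did. Few member differences were called at first, so keeping the threshold mostly meant staying uncalled, and the calls themselves changed often, as given below. In effector cells, 1 member (*AW112010*) was called without mice 34 and 36 (6 of 9811 genes), 2 with cells that had *Ccl5* (7 of 9141), and 0 to 1 with a mouse left out (1 to 3 genes). In central memory cells 2 members were called at an adjusted p below 0.05 with no limit of size (3 of 10351 genes) and 2 among genes found in at least 5% (2 of 7627). With labelled sex in the model 2 were called and on the mean per 10000 also 2 (2 of 10351 genes each). With a mouse left out 0 to 3 were called (0 to 9 genes). The 3 came without 564Igi mouse 24 (9 of 10884 genes), a fit with only 2 564Igi mice. In effector cells with *Ccl5*, the 2 passing both limits (*AW112010* and *Ccl5*, whose count chose the cells) became 0 without the trend (0 of 9141 genes). There was 1 among genes found in at least 5% (6 of 6628), 1 after thinning (5 of 9141) and 1 without cells with a CD8 or NK marker (5 of 8988). With a mouse left out there were 1 to 2 (6 to 8 genes). *Ccl5* over all cells went from 0.07 to -0.025 without the effector cluster. In TFR cells, leaving out a mouse moved the difference of *Ccl5* between -0.033 and 0.0012, that of *Nkg7* between -0.0022 and 0.033 and that of *Ctsw* between -0.0035 and 0.031. The difference between effector and other cells had 0 to 4 members with an unadjusted p below 0.05 when a mouse was left out (0 without 564Igi mouse 21).

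For clonotypes in effector cells, the 3 called members became 0 with no replicate block (no mouse term), 0 without the trend, 0 with each clonotype weighted once (8 members tested), 0 without the largest clonotype of each mouse (6 members tested in 6 mice), and 1 to 3 with a mouse left out. No gene at all was called where 0 members were, and 1 to 4 genes were with a mouse left out. *Ccl4*, 1 of the 3, had passed the filter only through the expanded cells. Weighted once, *Ccl5* was at -0.23, *Nkg7* at -0.024 and *Ctsw* at 0.029, and *Ctsw* was at 0.013 without the largest clonotypes. In TFR cells 1 member was called with clonotypes of 3 or more cells (7 of 8982 genes) and 0 to 1 with a mouse left out (2 to 6 genes). Cells with 4 or more of 8 members became 49.9% in effector and 0.138% in TFR cells when a count of 2 was required, and 0.256% in TFR cells after thinning. The causes were not tested. Leaving out cells with more than 1 chain of a kind was not run, since every cell listed has 1 alpha and 1 beta chain. The weighting of clonotypes, the largest clonotypes, the cells with *Ccl5* and their alternatives were chosen after seeing the data. In TFR cells, most of the cells with *Ccl3*, *Ccl4* or *Gzmb* had 1 count, and these members did not enter the limma fit there.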
